A study of Mus musculus and Homo sapiens with 12 samples.

Results

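The mitochondrial respiratory chain passes electrons from fuels to oxygen and uses the energy to pump protons across the inner membrane, and ATP synthase lets the protons back to make ATP. Complex II (succinate dehydrogenase) feeds electrons from the citric acid cycle into ubiquinone, complex III hands them to cytochrome c, complex IV (cytochrome c oxidase) gives them to oxygen, and complex V is ATP synthase. Every subunit of complex II and most subunits of the other complexes are encoded in the nucleus, whereas a few core subunits of complexes III to V are encoded in mitochondrial DNA.

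The genes described here are the nuclear genes of complexes II to V and of cytochrome c. They were chosen by symbol alone: SDHA to SDHD and symbols that begin with these letters, symbols that begin with UQCR, COX4 to COX8 or ATP5, and CYC1 and CYCS. This took 45 of the 11513 genes in a human expression table and 44 of the 10430 genes in a mouse table. Of the human genes 38 are subunits (4 of complex II, 9 of complex III, 10 of complex IV and 15 of complex V), 1 is cytochrome c, and 6 are neither: the assembly factor SDHAF2, the pseudogenes SDHAP1 and SDHAP3, the supercomplex factor COX7A2L, ATP5S and ATP5SL. Of the mouse genes 37 are subunits (4, 9, 11 and 13 in the same order), 1 is Cycs and 6 are neither (Sdhaf2, Sdhaf3, Sdhaf4, Cox7a2l, Atp5s and Atp5sl). None of the 6 mitochondrially encoded subunits looked for was listed in either table.

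RNA was sequenced in 12 libraries from T-cell acute lymphoblastic leukaemia (T-ALL), 2 per group. Human T-ALL cells of the established line KOPTK1 spent 72 h with Compound E, an inhibitor of gamma-secretase (gSI) that blocks the release of active NOTCH1, or with its carrier DMSO. The mouse leukaemias were driven by an activated NOTCH1 (delta-E) and carried as secondary transplants in C57BL/6 mice, which then spent 3 weeks on diets with 0, 0.4, 0.8 or 8 g/kg of the essential amino acid valine, the last being the control, and GFP-positive cells were sorted from the spleen. The protocol also speaks of valine in the drinking water, so the diets are used only by rank. Mouse ages and what the labels TALL2 and TALL3 mark are not given. The labels do not state that the 2 libraries of a group came from separate cultures or animals, so p-values measure only the spread between these libraries.

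Levels are FPKM, a fragment count scaled by gene length and library size. Differences are log2 fold changes on the log2(FPKM + 1) scale, which understates changes of genes with low values. A call means an adjusted p under 0.05 in limma, fitted over every gene whose mean reached 1 FPKM, with Benjamini-Hochberg adjustment over all of them. Reads recovered from the FPKM steps numbered 22932887 to 42231945 per KOPTK1 library and 14222895 to 37687253 per mouse library. HES1, a direct NOTCH1 target, had 0.0253 and 0.0431 FPKM with gSI and 6.72 and 6.18 FPKM with DMSO. Of 17 T-lineage markers, 15 were listed in KOPTK1, with summed levels of 249 to 263 FPKM with gSI and 415 to 429 FPKM with DMSO, and 17 in mouse, with 4490 to 5680 FPKM over all 8 libraries. In the human table the gene lengths behind the FPKM had a median of 29959 bp, close to whole gene spans, so levels are not compared between human genes. In mouse the median was 3179 bp, close to transcripts.

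In KOPTK1 cells a part of these genes fell with gSI, and with all libraries the medians were lowest for complexes II and III. That order was not kept without gSI replicate 2, where the median was -0.19 for complex II and -0.22 for complex IV. Of 40 tested members, 18 fell and 1 (UQCR10) rose. Over all 6679 tested genes 30.3% fell and 22.8% rose (53.1% in either direction), so 45.0% of members fell and 2.5% rose beside that background. By complex, 3 of 3 tested subunits of complex II fell, 5 of 9 of complex III, 3 of 10 of complex IV and 5 of 15 of complex V. The shares of complexes IV and V, 30% and 33.3%, are near the 30.3% of all tested genes, and differences between complexes were not tested. The median log2 fold change was -0.24 for complex II, -0.21 for complex III, -0.14 for complex IV and -0.10 for complex V, against -0.03 for all tested genes. Both gSI libraries lay below both DMSO libraries for 28 members and above for 3, beside 42.4% and 33.9% of all genes. At an unadjusted p under 0.05, 20 members were lower and 1 higher, beside 33% and 25.3% of all genes. The complex V median is sensitive to scaling and was -0.02 after quantile scaling. KOPTK1 is a single cell line. Bulk samples of it cannot tell a fall in every cell from a larger fall in part of the cells. SDHC, SDHAF2, SDHAP1, SDHAP3 and ATP5S were below the level tested.

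**Figure D1:**
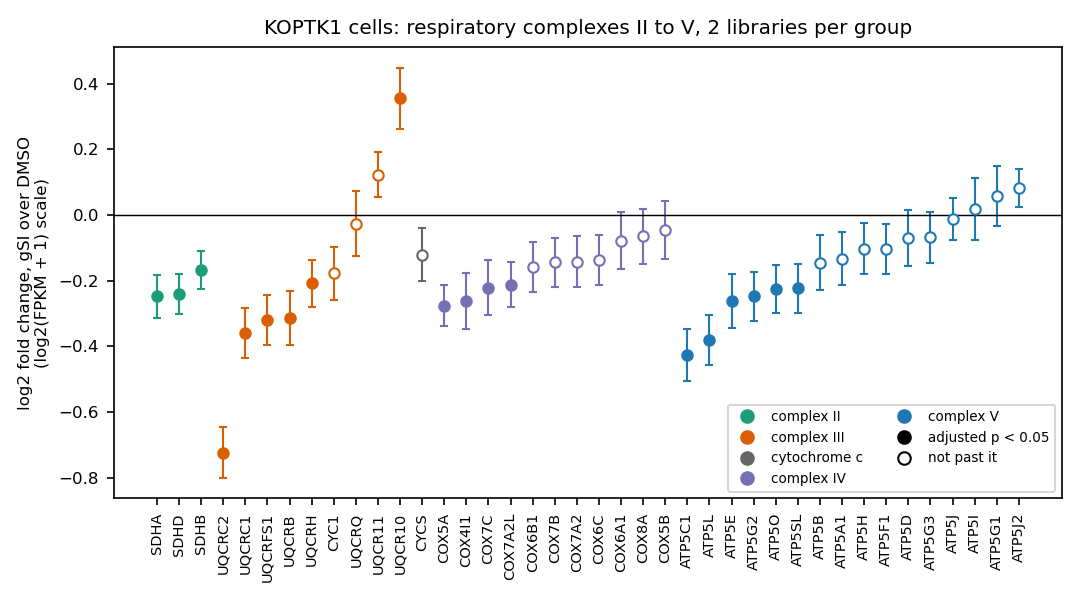
Log2 fold change of each tested gene in KOPTK1, gSI over DMSO, on the log2(FPKM + 1) scale, coloured by complex. Points are limma estimates, bars are standard errors, and filled points passed an adjusted p of 0.05. UQCRC2 is lowest at -0.72 and UQCR10 highest at 0.36. COX7A2L and ATP5SL, which are not subunits, are drawn with complexes IV and V.

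Complex II fell in all 3 of its tested subunits. SDHA, the flavoprotein that oxidises succinate, had 1.60 and 1.65 FPKM with gSI and 2.13 and 2.10 FPKM with DMSO (log2 fold change -0.25, SE 0.07, limma adjusted p = 0.0023). SDHB, the iron-sulfur subunit, had 1.11 and 1.17 FPKM with gSI and 1.39 and 1.41 FPKM with DMSO (-0.17, adjusted p = 0.0169). The membrane anchor SDHD had 1.14 and 0.949 FPKM with gSI and 1.49 and 1.33 FPKM with DMSO (-0.24, adjusted p = 0.0015). The groups did not overlap for any of the 3. None of the 3 is among the calls, named below, that held whichever library was left out. The other anchor, SDHC, was listed at 0.138 and 0.151 FPKM with gSI and at 0.121 in both DMSO libraries, under the filter of 1 FPKM. It had 207 and 331 recovered reads with gSI and 127 and 152 with DMSO, over a length of 48937 bp. Its low FPKM thus reflects the long gene span as well as the reads, and it was higher in both gSI libraries. With no filter, which brings SDHC in, the complex II median was -0.20. SDHAP1 and SDHAP3 are pseudogenes of SDHA, and how the authors counted reads shared by such copies is not given, so the SDHA level carries that uncertainty.

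Complex III held both the largest fall and the only rise. UQCRC2, a core protein of the complex, had 5.57 and 5.35 FPKM with gSI and 9.91 and 9.43 FPKM with DMSO (means 5.46 ± 0.155 and 9.67 ± 0.342, SD, n = 2 each). Its log2 fold change was -0.72 (SE 0.08, limma adjusted p = 1.3e-08). Its partner core protein UQCRC1 had 5.02 and 5.36 FPKM with gSI and 7.12 and 6.77 FPKM with DMSO (-0.36, adjusted p = 2.9e-04). UQCRFS1, the Rieske iron-sulfur protein that moves electrons towards cytochrome c1, had 4.90 and 5.08 FPKM with gSI and 6.59 and 6.36 FPKM with DMSO (-0.32, adjusted p = 8.5e-04). UQCRB, a small subunit near the ubiquinone site, had 7.6 and 8.74 FPKM with gSI and 10.7 and 10 FPKM with DMSO (-0.31, adjusted p = 0.00209). In these 4 genes both gSI libraries lay below both DMSO libraries. The hinge protein UQCRH, which helps cytochrome c1 meet cytochrome c, was the fifth to fall (-0.21, adjusted p = 0.0144).

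UQCR10, a small accessory subunit, went the other way, with 8.44 and 9.77 FPKM with gSI and 5.98 and 7.90 FPKM with DMSO (0.36, SE 0.09, limma adjusted p = 0.00225). Its DMSO libraries were far apart relative to the difference, and the call was lost without DMSO replicate 1 or without gSI replicate 2. CYC1, cytochrome c1 itself, had 15.8 and 16.6 FPKM with gSI and 17.7 and 19.3 FPKM with DMSO and did not pass (-0.18, adjusted p = 0.068). UQCRQ and UQCR11, both small accessory subunits, did not pass either (-0.03 and 0.12). Cytochrome c, the mobile carrier between complexes III and IV, is encoded by CYCS, with 7.84 and 7.09 FPKM with gSI and 8.63 and 7.78 FPKM with DMSO (-0.12, adjusted p = 0.212). Its groups overlapped.

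In complex IV 3 of 10 subunits fell, and all 10 estimates lay below 0, beside 54.9% of all tested genes. COX4I1, the common form of the largest nuclear subunit, had 21.8 and 23.3 FPKM with gSI and 28.9 and 25.7 FPKM with DMSO (-0.26, limma adjusted p = 0.0106). COX5A had 1.39 and 1.49 FPKM with gSI and 1.97 and 1.93 FPKM with DMSO (-0.28, adjusted p = 6.5e-04). COX7C had 17.8 and 20.0 FPKM with gSI and 22.8 and 21.6 FPKM with DMSO (-0.22, adjusted p = 0.0274). For none of the 3 genes did the groups overlap. The COX7C call was lost under median-of-ratios and under quantile scaling, and the COX4I1 call under quantile scaling. The 7 subunits that did not pass (COX6B1, COX7B, COX7A2, COX6C, COX6A1, COX8A and COX5B) ranged from -0.16 to -0.05. COX7A2L, which helps complexes III and IV join into supercomplexes, fell with 2.15 and 2.20 FPKM with gSI and 2.70 and 2.65 FPKM with DMSO (-0.21, adjusted p = 0.0122).

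Complex V was split. ATP5C1, the rotating gamma shaft of the catalytic head, had 7.04 and 7.45 FPKM with gSI and 10.4 and 9.79 FPKM with DMSO (-0.43, SE 0.08, limma adjusted p = 4.8e-05). ATP5L, a membrane subunit of the dimer interface, had 4.30 and 4.44 FPKM with gSI and 6.26 and 5.73 FPKM with DMSO (-0.38, adjusted p = 1.5e-04). ATP5E, the epsilon subunit that sits on the shaft, had 7.72 and 8.78 FPKM with gSI and 9.72 and 10.4 FPKM with DMSO (-0.26, adjusted p = 0.00826). Both gSI libraries lay below both DMSO libraries in all 3. The ATP5E call was lost under median-of-ratios and under quantile scaling. ATP5O, part of the stalk that holds the head still, also fell (-0.23, limma adjusted p = 0.0122). So did ATP5SL (-0.22, limma adjusted p = 0.0121), which shares the symbol prefix but is not counted among the complex V subunits.

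The catalytic pair of complex V did not pass. ATP5B, the beta subunit, had 74.5 and 76.6 FPKM with gSI and 83.9 and 83.5 FPKM with DMSO (-0.15, limma adjusted p = 0.146). After quantile scaling its log2 fold change was 0.04. ATP5A1, the alpha subunit, had 16.7 and 17.6 FPKM with gSI and 19.2 and 18.7 FPKM with DMSO (-0.13, adjusted p = 0.165). The groups did not overlap for either.

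The 3 genes for subunit c, which encode the same mature ring protein with different import signals, did not do the same. ATP5G2 had 2.40 and 2.67 FPKM with gSI and 3.06 and 3.34 FPKM with DMSO and fell (-0.25, limma adjusted p = 0.00636). ATP5G1 had 1.88 and 2.57 FPKM with gSI and 1.75 and 2.45 FPKM with DMSO (0.06, adjusted p = 0.617), and its estimate turned negative without DMSO replicate 1 or gSI replicate 2. ATP5G3 had 10.7 and 11.3 FPKM with gSI and 11.4 and 11.7 FPKM with DMSO (-0.07, adjusted p = 0.485). Only ATP5G2 of the 3 passed, and a difference between them was not tested. Of the remaining subunits of complex V, ATP5H, ATP5F1, ATP5D, ATP5J, ATP5I and ATP5J2 did not pass and ranged from -0.10 to 0.08.

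The size of the KOPTK1 result depended on single libraries. Without gSI replicate 1, 6 members fell, and without gSI replicate 2, 12 fell and 0 rose in limma. Without either DMSO library 17 fell. Calls of 5 genes (UQCRC2, ATP5C1, ATP5L, UQCRC1 and UQCRFS1) passed whichever library was left out and under every other setting tried. Within the gSI group, replicate 1 had the lower complex IV median (-0.22, against -0.08 in replicate 2, both relative to the DMSO mean), while replicate 2 had the lower complex II median (-0.23, against -0.19 in replicate 1).

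**Figure D2:**
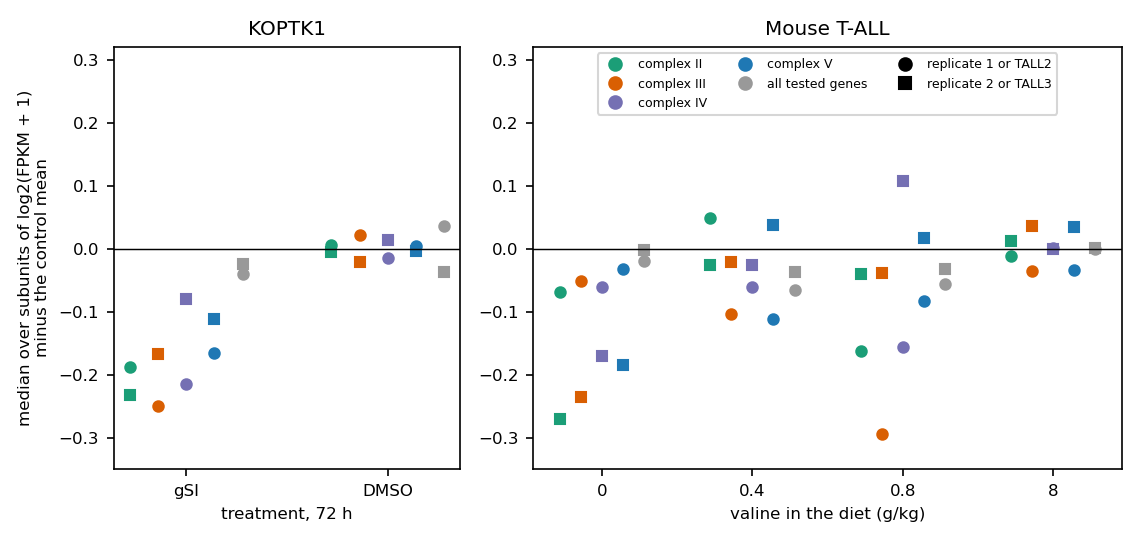
Median over the tested subunits of each complex of log2(FPKM + 1) minus the mean of the control libraries (DMSO, or 8 g/kg valine), 1 point per library, with the median of all tested genes in grey. Both gSI libraries lie below both DMSO libraries for all 4 complexes. Among the mouse libraries valine-free TALL3 and TALL2 with 0.8 g/kg are the lowest for complex III, at -0.24 and -0.29.

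Other genes of the pathway were described beside these in KOPTK1. Of 22 tested nuclear subunits of complex I, the chain's other entry point, 4 fell and 0 rose in limma (median -0.04). The share that fell, 18.2%, is below the 30.3% of all tested genes, of which 22.8% rose. At an unadjusted p under 0.05, 6 were lower and 3 higher, beside 33% and 25.3% of all genes. The difference between complex I and complexes II to V was not tested. Of 20 tested assembly factors of complexes III to V, 4 fell and 2 rose (median -0.08). These are 20% and 10%, both below the shares of all tested genes. COX15, which makes the haem of complex IV, had 3.4 and 3.25 FPKM with gSI and 4.75 and 4.18 FPKM with DMSO (-0.33, adjusted p = 6.2e-04). SCO2, a copper chaperone of the same complex, had 1.42 and 1.63 FPKM with gSI and 1.1 and 0.911 FPKM with DMSO (0.33, adjusted p = 5.8e-05). Of 4 tested subunits kept under other symbols (NDUFA4, USMG5, C14orf2 and the ATP synthase inhibitor ATPIF1), none passed in limma, also at an unadjusted p under 0.05.

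Of 7 tested regulators of nuclear respiratory genes 6 fell and 1, ESRRA, rose, beside 30.3% and 22.8% of all tested genes (53.1% in either direction). MYC, a growth factor-responsive transcription factor, had 4.75 FPKM in both gSI libraries and 17.2 and 16.1 FPKM with DMSO (-1.61, limma adjusted p = 5.8e-16). TFAM, which packages and transcribes mitochondrial DNA, had 6.25 and 6.18 FPKM with gSI and 9.19 and 8.71 FPKM with DMSO (-0.46, adjusted p = 1.3e-05). GABPA, an ETS-family factor of respiratory promoters, had 2.31 and 1.95 FPKM with gSI and 2.81 and 2.51 FPKM with DMSO (-0.23, adjusted p = 0.0125). All 3 had non-overlapping groups.

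In the mouse leukaemias no member passed on any restricted diet. This holds for 0 of 43 tested members in limma against 8 g/kg, where 0% of the 9943 tested genes passed as well, and for voom on recovered reads. At an unadjusted p under 0.05, without valine 5 members were lower and 1 higher (5.52% and 4.79% of all genes). With 0.4 g/kg 4 were lower and 1 higher (7.57% and 3.08% of all genes), and with 0.8 g/kg 1 was lower and 1 higher (3.21% and 1.15% of all genes). By voom the counts were 5 and 1, 3 and 1, and 1 and 0. Over the slope across the 4 ranked diets 7 were lower and 1 higher with less valine (6.37% and 5.90% of all genes), and 0 passed. In limma the 1 higher member was Cox6a2 in each diet comparison and in the slope. It met the filter only through the restricted diets, where it was high. The 3 diet comparisons share their control libraries.

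The direction of the estimates without valine was nevertheless mostly downward. Of 43 members, 35 had a negative log2 fold change (81.4%, beside 52.2% of all tested genes), with a median of -0.13, against -0.01 over all genes. By complex the medians were -0.17 for complex II, -0.15 for III, -0.12 for IV and -0.09 for V, and the 35 nuclear complex I subunits stood at -0.18. Both libraries without valine lay below both control libraries for 20 members and above for 1, beside 22.9% and 19.1% of all genes. The median was -0.05 with 0.4 g/kg (-0.05 over all genes) and -0.08 with 0.8 g/kg (-0.04 over all genes). With 0.4 g/kg 15 members were lower and 5 higher without overlap (31.8% and 16.9% of all genes), and with 0.8 g/kg 17 were lower and 2 higher (22.5% and 10.6% of all genes).

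The valine-free TALL3 library lay lower than its TALL2 counterpart. In TALL3 without valine the medians relative to the control mean were -0.27, -0.24, -0.17 and -0.18 for complexes II, III, IV and V. In TALL2 without valine they were -0.07, -0.05, -0.06 and -0.03. With the valine-free TALL3 library left out the complex III median was -0.05, and with the valine-free TALL2 library left out it was -0.24. The valine-free TALL3 library was also the shallowest. Whether depth plays a part was not tested.

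**Figure D3:**
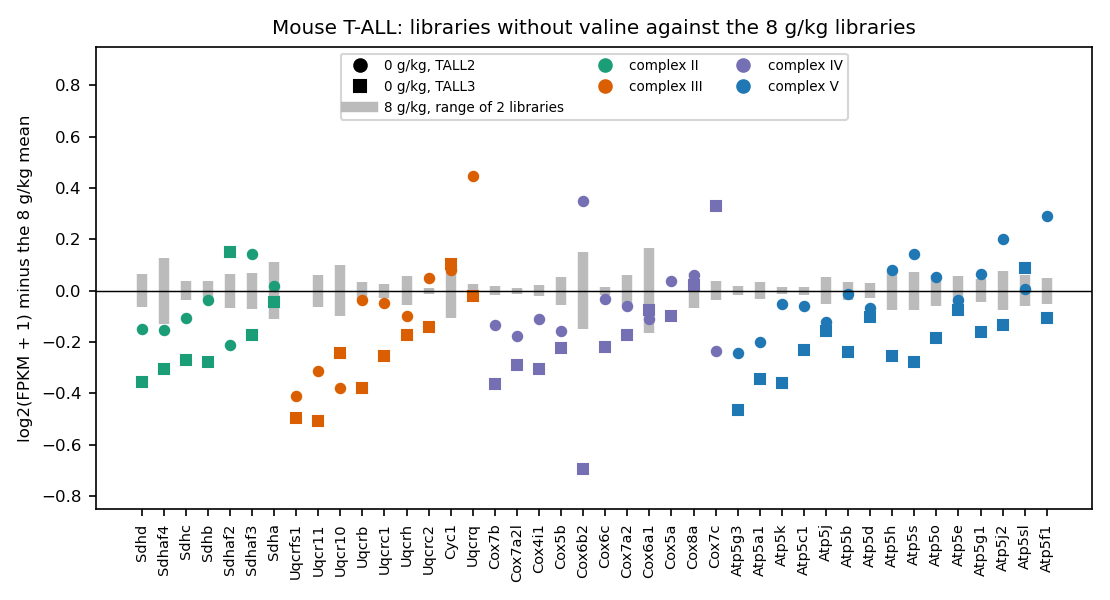
Log2(FPKM + 1) of each tested mouse gene in the 2 libraries without valine, minus the mean of the 8 g/kg libraries, with grey bars for the range of the 2 control libraries. Cox6a2, far above the axis, is left out and is drawn in the plot of Cox6a isoforms. Most points lie below 0, squares (TALL3) mostly lower than circles (TALL2).

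The lowest p among members that were lower without valine was that of a complex III gene also called in KOPTK1. Uqcrfs1 had 93.9 and 88.3 FPKM without valine (TALL2 first and TALL3 second, here and below), 102 and 98.7 with 0.4 g/kg, 92.8 and 106 with 0.8 g/kg, and 125 in both libraries with 8 g/kg. All 6 restricted libraries lay below both controls. Its log2 fold change without valine was -0.46 (SE 0.09, limma adjusted p = 0.275). On 0.4 g/kg it was -0.32 (limma adjusted p = 0.409) and on 0.8 g/kg -0.34 (adjusted p = 0.998). Uqcr11, a small accessory subunit, had 37.0 and 32.2 FPKM without valine, 35.5 and 35.4 with 0.4 g/kg, 35.5 and 42.8 with 0.8 g/kg, and 44.2 and 48.3 with 8 g/kg (-0.41 without valine, adjusted p = 0.406). It too stood below both controls in all 6 restricted libraries.

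In complex V, Atp5g3, a gene for subunit c, had 257 and 220 FPKM without valine, 255 and 283 with 0.4 g/kg, 247 and 268 with 0.8 g/kg, and 308 and 301 with 8 g/kg (-0.36, limma adjusted p = 0.406). All 6 restricted libraries were below the controls. Atp5g1, another gene for subunit c, had 2.02 to 2.84 FPKM over the 8 libraries. Atp5g2 is not analysed here. The alpha subunit Atp5a1 had 554 and 502 FPKM without valine, 572 and 551 with 0.4 g/kg, 523 and 607 with 0.8 g/kg, and 622 and 652 with 8 g/kg (-0.27, adjusted p = 0.473). The beta subunit Atp5b, the member with the highest level per length, had 917 and 783 FPKM without valine and 902 and 947 with 8 g/kg, which overlap (-0.12, adjusted p = 0.726).

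In complex II the 2 smallest p-values belonged to the membrane anchors. Sdhd had 111 and 96.1 FPKM without valine, 112 and 110 with 0.4 g/kg, 107 and 120 with 0.8 g/kg, and 118 and 129 with 8 g/kg (-0.25, limma adjusted p = 0.487). Sdhc had 37.6 and 33.5 FPKM without valine, 40.3 and 39.3 with 0.4 g/kg, 34.2 and 39.4 with 0.8 g/kg, and 41.7 and 39.5 with 8 g/kg (-0.19, adjusted p = 0.572). Without valine neither overlapped the controls. The catalytic subunits overlapped them, with Sdha at 136 and 130 FPKM without valine and 124 and 145 with 8 g/kg, and Sdhb at 112 and 94.7 FPKM without valine and 118 and 112 with 8 g/kg.

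The core proteins of complex III had small differences. Uqcrc1 had 127 and 110 FPKM without valine and 129 and 134 with 8 g/kg (-0.15). Uqcrc2, whose human counterpart fell most with gSI, had 193 and 169 FPKM without valine and 188 and 185 with 8 g/kg (-0.04, limma adjusted p = 0.901). Cyc1 stood at 97.3 and 98.9 FPKM without valine and 85.4 and 99.1 with 8 g/kg (0.09). None of the differences passed. In complex IV, Cox4i1 had 388 and 339 FPKM without valine and 413 and 425 with 8 g/kg (-0.21), and Cox5a had 59.1 and 53.7 FPKM without valine and 57.5 in both controls (-0.03). Cox7a2l had 83.2 and 77.0 FPKM without valine, 80.7 and 76.2 with 0.4 g/kg, 87.2 and 90.9 with 0.8 g/kg, and 95 and 93.5 with 8 g/kg (-0.23, adjusted p = 0.424), below both controls in all 6 restricted libraries, with a near-identical pseudogene copy that makes its level uncertain.

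A single member lay far in the other direction, with no call. Cox6a2, the heart and skeletal muscle form of complex IV subunit 6a, lies on chromosome 7 of GRCm38 (chr7:128205435-128206387, minus strand), inside Itgad on the opposite strand. It had 18.0 and 25.4 FPKM without valine, 5.28 and 2.36 with 0.4 g/kg, 0.711 and 8.29 with 0.8 g/kg, and 0.0675 and 0.0888 with 8 g/kg. These are 237 and 250 recovered reads without valine, 142 and 28 with 0.4 g/kg, 8 and 150 with 0.8 g/kg, and 1 in each control library. All 6 restricted libraries lay above both controls, and the pair with 0.8 g/kg was widely spread. With the reads of the 2 libraries of a diet summed, the read rate without valine was 276 times the control rate. The exact 95% interval of 76.1 to 2290 covers counting error only and leaves out the spread between libraries. The ratio was 57.1 (15.6 to 476) for 0.4 g/kg and 70.2 (19.1 to 584) for 0.8 g/kg. With 0.8 g/kg 8 of the summed reads came from TALL2 and 150 from TALL3, so that ratio and interval do not describe each library. The log2 fold change without valine was 4.38 (SE 0.76) and did not pass (limma adjusted p = 0.221, and 0.084 to 0.886 over the alternatives). Cox6a2 met the filter of a mean of 1 FPKM only through the restricted diets, since its control mean was 0.0781 FPKM. Its being tested thus depended on the rise itself, and its p-values, read ratios and intervals are only descriptive.

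Cox6a1, the form used in most tissues, kept to 154 to 194 FPKM over all 8 libraries, with 160 and 164 without valine and 154 and 194 with 8 g/kg. Cox6a2 therefore made up 10.2% and 13.4% of the summed Cox6a level without valine and 0.0439% and 0.0457% in the controls. Itgad had 0.517 and 0.539 FPKM without valine, 0.209 in both libraries with 0.4 g/kg, 0.544 and 0.32 with 0.8 g/kg, and 0.235 and 0.779 with 8 g/kg. Muscle markers are not analysed here. Markers of other blood cells also differed between the diets. Of 12 neutrophil markers 10 were listed, and their summed level was 306 to 546 FPKM without valine, 12.1 to 72.4 with 0.4 g/kg, 6.66 to 13.5 with 0.8 g/kg and 0.737 to 8.26 with 8 g/kg, with S100a8, Elane, Mmp8, Camp and Retnlg at 0 in a control library. Of 12 erythroid markers 7 were listed, with sums of 6.30 to 6.52 FPKM without valine, 38.1 to 52.9 with 0.4 g/kg, 28.6 to 38.7 with 0.8 g/kg and 97.5 to 264 with 8 g/kg, and 5 of them at 0 in a library without valine. B cell markers (0 of 6 listed) gave no value, and 3 of 7 macrophage markers summed to 8.96 to 12.6 FPKM without valine and 6.17 to 11.5 FPKM with 8 g/kg. The part of these cells in the levels of Cox6a2 or of any other member was not tested.

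**Figure D4:**
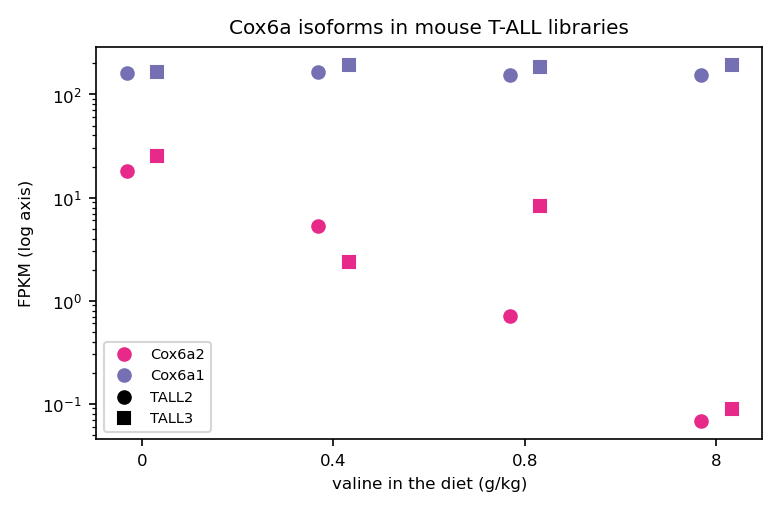
FPKM of Cox6a2 and Cox6a1 in each mouse library on a log axis, by valine in the diet. Cox6a2 is at 18.0 and 25.4 FPKM without valine and at 0.0675 and 0.0888 FPKM in the 2 controls, while Cox6a1 stays between 154 and 194 FPKM.

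The remaining mouse members had differences without valine from -0.31 (Uqcr10) to 0.21 (Uqcrq), and none passed. Cycs had 1.29 and 1.08 FPKM without valine and 0.706 and 0.889 with 8 g/kg and was below the level tested. Its mouse transcript has 4 near-identical copies elsewhere in the genome, and 12 other members (among them Uqcrb, Cox7c, Atp5h and Atp5c1) have at least 1, so these levels are uncertain. Of 32 tested assembly factors 2 were lower and 1 higher at an unadjusted p under 0.05 without valine. Of all tested genes 5.52% were lower and 4.79% higher, the background here and for the regulators below. The smallest p was that of Tmem70, an assembly factor of complex V, with 22.7 and 20.4 FPKM without valine and 27.2 and 25.5 FPKM with 8 g/kg (-0.28, limma adjusted p = 0.41). Of 12 tested regulators 2 were lower and 0 higher: Myc, with 161 and 112 FPKM without valine and 267 and 222 with 8 g/kg (-0.86, adjusted p = 0.358), and Gabpa, with 26.7 and 27.5 FPKM without valine and 33.6 and 32.6 with 8 g/kg (-0.28, adjusted p = 0.371). None of the assembly factors or regulators passed.

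The promoters of the members can be read beside these values. Nuclear respiratory genes are known for promoters with sites of the factor NRF1 and of ETS factors such as GABPA. RefSeq windows of GRCm38.p6 were at hand for 32 of the 44 mouse members, and the 250 bases before the start were searched on both strands for an NRF1 core (GCATGCGC) and an ETS motif (CCGGAAG). The letters of the NRF1 core were chosen after promoters had been seen. The core stood in 4 of 32 members (12.5%), Atp5k, Cox6a1, Cycs and Sdhb, against 2.32% of all 27025 genes and 5.13% of 7579 tested genes. The ETS motif stood in 8 (25%), Atp5e, Atp5h, Cox6a1, Sdhaf2, Sdhaf3, Sdhd, Uqcr11 and Uqcrh, against 7.05% and 15.85%. Cycs, below the level tested, counts among the 32 members but not among the tested genes, so those sets are not alike. Shown are the 3 members with the smallest p among those lower without valine and Cox6a1, the steady form of subunit 6a, with the motifs in capitals, each on the minus strand and read 5′ to 3′ towards the gene:
Uqcrfs1 (chr13:30545363-30545566, GRCm38.p6): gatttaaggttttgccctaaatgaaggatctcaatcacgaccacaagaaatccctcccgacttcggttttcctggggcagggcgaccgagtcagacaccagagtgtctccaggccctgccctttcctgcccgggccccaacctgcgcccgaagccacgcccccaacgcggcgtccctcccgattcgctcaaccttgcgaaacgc
Uqcr11 (chr10:80406822-80407071, GRCm38.p6): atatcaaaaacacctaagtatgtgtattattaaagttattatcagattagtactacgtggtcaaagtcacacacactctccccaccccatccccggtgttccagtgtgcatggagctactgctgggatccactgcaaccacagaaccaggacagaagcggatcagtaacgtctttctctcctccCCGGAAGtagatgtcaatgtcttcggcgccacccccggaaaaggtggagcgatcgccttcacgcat
Atp5g3 (chr2:73911327-73911576, GRCm38.p6): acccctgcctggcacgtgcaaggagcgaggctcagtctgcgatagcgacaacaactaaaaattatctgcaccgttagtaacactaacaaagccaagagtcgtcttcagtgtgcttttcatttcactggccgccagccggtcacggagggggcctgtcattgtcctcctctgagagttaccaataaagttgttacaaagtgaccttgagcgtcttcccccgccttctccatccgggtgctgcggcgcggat
Cox6a1 (chr5:115348959-115349208, GRCm38.p6): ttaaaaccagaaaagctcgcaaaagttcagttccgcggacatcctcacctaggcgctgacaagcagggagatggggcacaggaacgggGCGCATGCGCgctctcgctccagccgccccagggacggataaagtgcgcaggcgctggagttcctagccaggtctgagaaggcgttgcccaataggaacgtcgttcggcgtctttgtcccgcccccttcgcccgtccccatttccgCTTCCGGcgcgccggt

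In Cox6a1 the NRF1 core matches on both strands in 10 overlapping bases, the first 162 bases before the start, and the ETS motif lies on the other strand 16 bases before it. In GENCODE M21 the Cox6a1 gene begins further out, at base 115348981, so its ETS motif lies inside that annotated gene. In Uqcr11 the ETS motif begins 66 bases before the start. The windows of Uqcrfs1 and Atp5g3 hold neither, and that of Uqcrfs1 is cut to 204 bases to end before a second annotated start. A match describes letters and not a bound site.

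The same genes can be set side by side in the 2 leukaemias, which share no library. Of 36 members tested in both tables, 25 had lower estimates both with gSI and without valine, and 1 had higher estimates in both. With gSI 6 were lower while being higher without valine, and 4 were higher with gSI while being lower without valine. In each table alone most tested members were lower, 87.5% with gSI and 81.4% without valine, beside 54.9% and 52.2% of all tested genes. The count of shared signs therefore does not by itself show a link between the systems. The share over all genes tested in both tables is not given here. Of the 16 that fell with gSI, 14 had a negative estimate without valine (87.5%), a share close to the 29 of 36 (80.6%) among all members tested in both. UQCRFS1 stood low in both, at -0.32 with gSI and -0.46 without valine. UQCR10 went opposite ways, at 0.36 with gSI and -0.31 without valine, and UQCRC2 differed in size, at -0.72 with gSI and -0.04 without valine. These differences between systems were not tested, since the tables were normalised separately, and no mouse value passed.

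**Figure D5:**
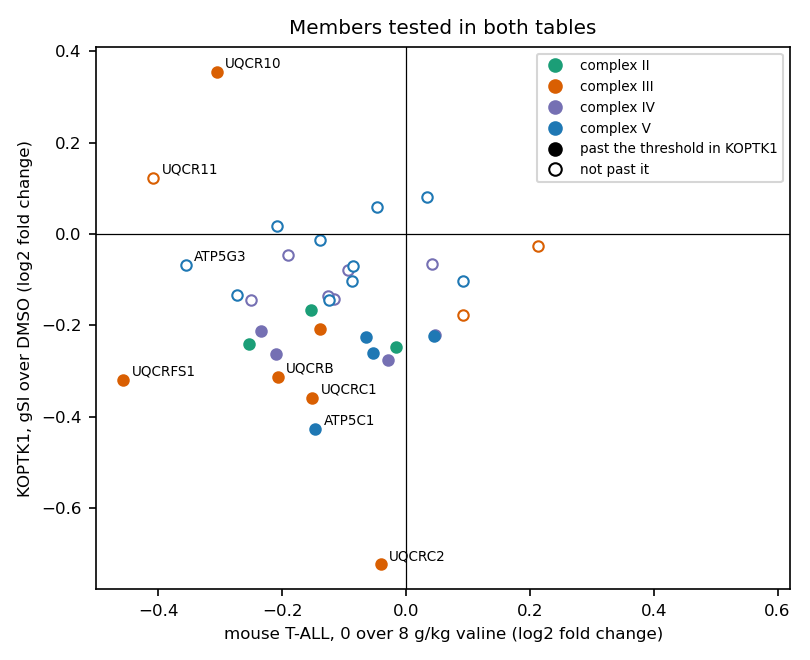
Log2 fold change of members tested in both tables, with gSI over DMSO in KOPTK1 on the vertical axis and 0 over 8 g/kg valine in mouse T-ALL on the horizontal axis, coloured by complex. Filled points passed in KOPTK1, and none passed in mouse. Most points lie in the lower left, as most members were lower in each table alone, with UQCRFS1 at -0.46 and -0.32.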

How the data were processed

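RNA-seq of 12 libraries was analysed. The authors deposited FPKM, in a human and a mouse table. The submitters' processing notes name the builds hg19 and mm10 and the tools STAR and edgeR. No source used here gives their versions, roles or gene models. All columns were used, and the tables, normalised separately, were fitted separately. The main test was two-sided and used limma 3.58.1 (R 4.3.3) with a mean-variance trend. It took log2(FPKM + 1) of every gene whose mean reached 1 FPKM (6679 human, 9943 mouse), with Benjamini-Hochberg adjustment over these and a threshold of 0.05. The 4 diets shared 1 fit. Read numbers were recovered from the steps between FPKM values: 95.75% of human and 99.88% of mouse gene lengths came out whole within 0.01 bp. The intervals of read ratios are exact for reads summed over the 2 libraries of a diet and cover counting error only. Near-identical copies are matches of at least 95% identity over 200 bp (BLAST 2.17.0, GENCODE M21). The members, lists and the rule for naming genes (up to 4 calls per complex and direction, otherwise the smallest p, plus fixed subunits) were chosen with earlier results of these data known. Alternatives were pseudocounts of 0.1 and 5, other filters, scalings and variance models, voom on recovered reads, a replicate block, subsets of diets and leaving out each library. Fits and read recovery were tested on simulated data.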

Additional observations from a re-analysis of the deposited data

How the results depend on the processing

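In KOPTK1 the direction of each complex median held under every setting that gave one (no complex II subunit reached a mean of 5 FPKM), but counts moved. When the mean had to reach 5 FPKM 9 of 23 tested members fell. With no filter, median-of-ratios scaling or quantile scaling 2 members rose rather than 1. Leaving out 1 library gave 6 to 17 falls and 0 to 1 rises. ATP5B (0.0431) and ATP5G3 (0.0169) turned positive under quantile scaling, and ATP5G1 ranged from -0.11 (without DMSO replicate 1) to 0.22, also negative without gSI replicate 2. Without 1 mouse library the uncalled differences at 0 against 8 g/kg changed sign for Atp5g1 (-0.16 to 0.065) and Cox5a (-0.098 to 0.0395) without valine-free TALL3, for Cyc1 (-0.015 to 0.198) without TALL2 with 8 g/kg, and for Sdha (-0.13 to 0.097) without valine-free TALL3 or TALL3 with 8 g/kg. The cause was not tested. With the replicate number as a block, 18 members fell and 1 rose in KOPTK1 and 0 passed in mouse. The labels do not state a pairing, the deviations of same-numbered libraries correlated at 0.26 in KOPTK1 and at -0.17 to 0.74 between mouse diets, and the numbers were not taken as pairs. No member passed in mouse under any setting. Depth limits the precision of genes with few reads, such as Cox6a2 with 1 read in each control library.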
